A study of Mus musculus with 4 samples.

Results

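The prolactin (Prl), pregnancy-specific glycoprotein (Psg) and Ceacam genes were taken as the genes whose name on the array starts with Prl and a digit, Psg and a digit, or Ceacam, and which had at least 3 probes with input signal well above background on all 4 arrays. Of 45 such names, 37 met the rule: 18 of 21 Prl genes, 8 of 12 Psg genes and 11 of 12 Ceacam genes. They were 37 of the 18332 genes measured, and 405 probes carried their values (200 Prl, 73 Psg and 132 Ceacam). Just inside the threshold lay Psg21 with 3 probes and Prl8a2 with 4. Just outside it lay Psg28, where 1 of 3 probes passed. Prl2c3, Prl2c4, Psg18, Psg23, Psg26 and Ceacam1 each had 1 probe on the array, which passed, and the single probe of Prl3d1 did not pass.

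The DNA came from mouse leukaemic cells, labelled WT or KO and either untreated or given decitabine, a cytidine analogue that is built into DNA and traps DNA methyltransferases. The dose was 20 nM, given every 24 h over 3 days, and the 4 groups were harvested at 72 h. The source names of the samples point to Mll5, a chromatin protein with a SET domain and a PHD finger, as the deleted gene, whereas HOXA9 stands in the genotype field of the KO cells, so the labels disagree and the groups are called WT and KO here. The methods text used here gives neither the number of lines or animals behind each genotype nor the transforming allele of the leukaemia, and a DNA assay cannot check the labelled cell type against expressed markers. Methylated DNA was enriched with an antibody to methylcytosine (methylated DNA immunoprecipitation, MeDIP) and compared with the input DNA of the same cells on arrays that cover promoters and CpG islands. Each group was measured on 1 array on its own slide. A difference between 2 groups therefore carries no check by replicates, and slide effects cannot be told apart from it.

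Placental lactogens and prolactin-related proteins are hormones of the prolactin family made by trophoblast and decidua, and in the mouse their genes form a large cluster on chromosome 13. Pregnancy-specific glycoproteins are secreted immunoglobulin-domain proteins of the trophoblast, and Ceacam genes encode related adhesion and secreted molecules, many of which lie beside the Psg genes on chromosome 7. Placental lactogen and Psg genes are not normally active in blood cells, and promoters with few CpG sites are commonly methylated in tissues that do not use them. MeDIP recovers a DNA fragment through its methylcytosines, so a fragment with few CpG sites gives little signal even where each of them is methylated.

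Most genes of the clusters held few CpG sites around their probes. The 18 Prl genes lay between 27283836 and 28236764 on chromosome 13 (mm9), a span of 953 kb, and all 8 Psg genes and 8 Ceacam genes lay together on chromosome 7 between 17301918 and 20553199. Ceacam10 and Ceacam2 formed a separate block on chromosome 7 from 25558929 to 26325136, and Ceacam18 lay alone between 50884639 and 50892557. Members of a chromosome whose probes lay under 2 Mb apart were taken as a block. In windows of 500 bp around the probes, the median gene held 2 CpG sites in the Prl family, 2.89 in the Psg family and 4.88 in the Ceacam family, against 11.8 over all genes. Ceacam16, with 25.6 CpG sites and 61.8% GC, and Psg16, with 11.4 CpG sites, were the exceptions. The GC content of these windows had a median of 36.0% in the Prl genes (32.7% to 38.5%), 47.2% in the Psg genes, 48.3% in the Ceacam genes and 49.5% over all genes. Of the 405 probes, 302 held no CpG site in their own sequence, 40 lay in an exon of the GENCODE M1 annotation, 130 in an intron and 235 between genes, and 132 lay within 1000 bp of an annotated transcription start.

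Promoter sequences show the same scarcity and are given for 4 members that the results below turn on. They are RefSeq sequences of build GRCm38.p6, from 250 bases before to 50 bases after the annotated start, on the gene's own strand, and 30 of the 37 members had one. CG dinucleotides are in capitals. Prl3c1 encodes a prolactin-like protein of the decidua, and its promoter (chr13:27196410-27196709, + strand) held none. Prl2b1, another prolactin-like gene, had 5 (chr13:27390797-27391096, - strand). Psg17, whose product binds the tetraspanin CD9, had 3 (chr7:18821542-18821841, - strand), and Ceacam19, an adhesion-molecule relative, had 5 (chr7:19887916-19888215, - strand).
Prl3c1: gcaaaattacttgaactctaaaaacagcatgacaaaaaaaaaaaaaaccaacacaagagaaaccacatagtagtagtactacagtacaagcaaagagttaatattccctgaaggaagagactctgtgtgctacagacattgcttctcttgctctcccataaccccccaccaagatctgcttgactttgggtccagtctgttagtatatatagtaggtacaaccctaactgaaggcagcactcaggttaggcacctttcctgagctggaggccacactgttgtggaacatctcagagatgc
Prl2b1: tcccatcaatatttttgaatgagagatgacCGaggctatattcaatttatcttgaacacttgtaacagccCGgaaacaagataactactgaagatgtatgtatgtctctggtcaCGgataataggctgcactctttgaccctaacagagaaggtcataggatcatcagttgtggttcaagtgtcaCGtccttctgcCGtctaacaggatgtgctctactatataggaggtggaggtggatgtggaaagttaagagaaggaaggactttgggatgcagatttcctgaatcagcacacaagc
Psg17: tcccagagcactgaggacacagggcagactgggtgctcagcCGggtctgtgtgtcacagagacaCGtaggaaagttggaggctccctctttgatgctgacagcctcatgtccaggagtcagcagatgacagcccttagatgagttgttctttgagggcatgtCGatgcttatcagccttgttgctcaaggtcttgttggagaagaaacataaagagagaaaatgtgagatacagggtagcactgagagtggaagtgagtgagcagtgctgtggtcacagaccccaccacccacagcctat
Ceacam19: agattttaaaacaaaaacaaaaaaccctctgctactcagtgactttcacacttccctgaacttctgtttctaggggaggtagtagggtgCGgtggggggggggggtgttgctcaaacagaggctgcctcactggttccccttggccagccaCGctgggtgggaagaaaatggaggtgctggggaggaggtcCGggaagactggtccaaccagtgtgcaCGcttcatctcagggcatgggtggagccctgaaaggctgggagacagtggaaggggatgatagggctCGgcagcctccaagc
All 30 member promoters held at most 5 CG dinucleotides, with medians of 3 in the Prl, 2 in the Psg and 3 in the Ceacam genes. Over all 27025 promoters of the same table the median was 7, and 43.6% of them held at most 5.

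Most of the MeDIP signal in the clusters was too close to background to be measured. On the WT untreated array 8 of the 405 member probes (1.98%) stood well above background in MeDIP, 7 (1.73%) on the KO untreated array, 21 (5.19%) on the WT decitabine array and 23 (5.68%) on the KO decitabine array. The shares over the probes of all genes on the same arrays were 4.20%, 4.19%, 14.5% and 16.5%, so the members had the smaller share on every array and both sets had the larger share on the decitabine arrays. The scanner software had put a surrogate value, a floor set from the background, in place of the MeDIP signal at 65.9%, 66.9%, 51.1% and 49.1% of member probes, in that order of arrays. Over the probes of all genes these shares were 60.7%, 58.8%, 38.7% and 37.6%. Low MeDIP signals also differed between arrays. The single probes of Psg26 (342, 314, 205 and 194) and Prl3d1 (294, 299, 205 and 199), well above background on no array, both read lower on the decitabine arrays. In all, 376 of the 405 probes were well above background on no array, and 16 of the 37 genes had no such probe on any array. Below, the level of a gene is the mean over its probes of log2 MeDIP over input, centred on the median of each array, and where no probe was well above background the level is a measured value with MeDIP near its floor. For such genes levels and differences between levels are given as measured, with no fold and no fitted effect size. These differences do not size a change in methylation.

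**Figure D1:**
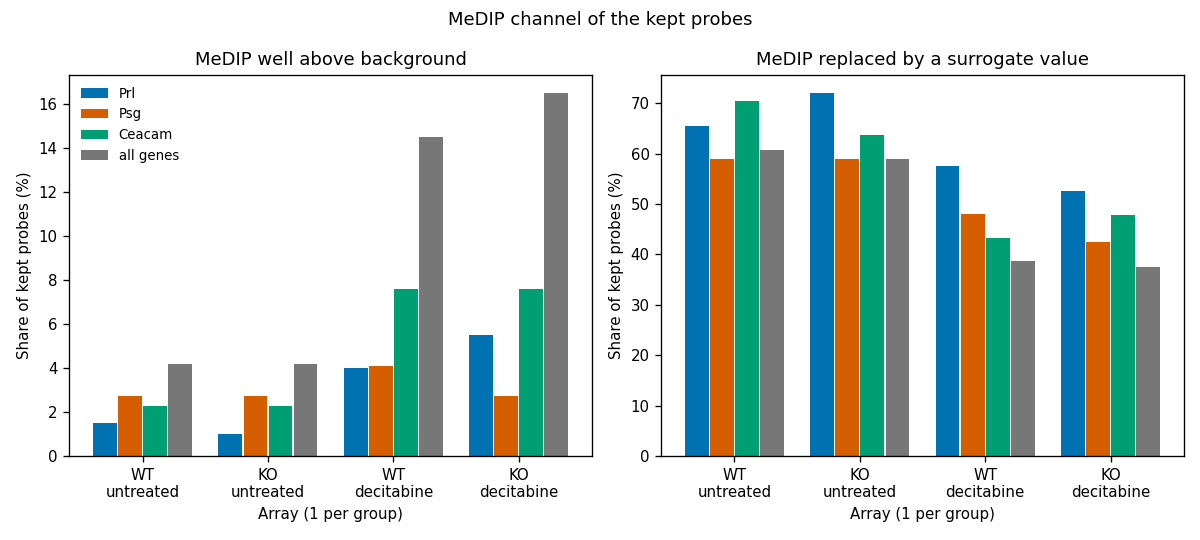
Share of member and all-gene probes (%) whose MeDIP signal was well above background (left) or replaced by a surrogate value (right) on each of the 4 arrays, as bars by family. On the WT untreated array 1.98% of all member probes were well above background against 4.20% of all probes, and on the KO decitabine array 5.68% against 16.5%.

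MeDIP was well above background on all 4 arrays at 6 probes, 1 each in Prl8a8, Prl7a2, Ceacam9, Psg25, Psg17 and Ceacam19. Their sequences are shown because these are the only places in the clusters where MeDIP was read well above background on all arrays. Positions are in mm9, on the + strand, with CG in capitals. The Prl8a8 probe (chr13:27603811-27603870) lay in an intron, the Prl7a2 probe (chr13:27761323-27761374) between genes, the Ceacam9 probe (chr7:17308914-17308969) in an intron, the Psg25 probe (chr7:19120288-19120342) between genes, the Psg17 probe (chr7:19406387-19406435) in an intron and the Ceacam19 probe (chr7:20473087-20473131) in an exon.
Prl8a8 probe: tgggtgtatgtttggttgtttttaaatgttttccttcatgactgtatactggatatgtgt
Prl7a2 probe: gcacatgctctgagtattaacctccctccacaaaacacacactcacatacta
Ceacam9 probe: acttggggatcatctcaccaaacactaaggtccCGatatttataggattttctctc
Psg25 probe: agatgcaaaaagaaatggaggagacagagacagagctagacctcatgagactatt
Psg17 probe: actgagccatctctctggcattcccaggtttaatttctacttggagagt
Ceacam19 probe: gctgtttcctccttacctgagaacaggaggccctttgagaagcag
Of these sequences the Ceacam9 probe holds 1 CG and the others none. Their 500 bp windows held 21 CpG sites around the Ceacam9 probe, 7 around Ceacam19, 3 around Prl7a2, 1 around Psg17 and 0 around Psg25 and Prl8a8. With so few CpG sites, a change in the ratio at the Psg17, Psg25 and Prl8a8 probes does not size a change in methylation.

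At the Ceacam9 probe, log2 MeDIP over input was 1.82 on the WT untreated array, 2.09 on KO untreated, 2.31 on WT decitabine and 2.96 on KO decitabine. Both decitabine arrays read above both untreated arrays there, by 0.50 in WT and 0.88 in KO cells. Over the 8908 probes of all genes that were well above background on all 4 arrays, the median change with decitabine was 0.63 in WT and 0.82 in KO cells, so the rise at Ceacam9 was near what such probes showed in general. The Psg25 probe read -0.37, -0.09, 0.42 and 0.71 in the same order, 0.79 higher with decitabine in WT and 0.80 higher in KO cells, again near those medians. The Prl7a2 probe, from a gene of the prolactin-like group, read 0.34, 0.57, 1.26 and 0.87, again with both decitabine arrays above both untreated ones. At the Ceacam19 probe the values were 1.61, 1.27, 1.26 and 1.57, and the groups overlapped. The Psg17 probe read 1.37, 0.14, 0.56 and 0.80, with the highest value on the WT untreated array. The Prl8a8 probe read 0.41, -0.55, 0.20 and -1.53, and both KO arrays read below both WT arrays. Its MeDIP signal lay between 58282 and 100134 fluorescence units while its input signal ranged from 62900 on the WT untreated to 332353 on the KO decitabine array, so the input channel moved more than the MeDIP channel at this probe. The Psg25 and Psg17 probes each matched 2 further sites of the genome over at least 80% of their bases and the Prl8a8 probe 1, so signal from those sites cannot be told apart. Not all of the member probes followed the rise that 77.1% of the 8908 probes showed in WT and 90.4% in KO cells under this centring. The Prl8a8 probe changed by -0.22 with decitabine in WT and -0.98 in KO cells. The Psg17 probe changed by -0.81 and 0.66, and the Ceacam19 probe by -0.36 and 0.29. At the Prl7a2 probe the changes were 0.92 and 0.30, where the lower quartile of the 8908 probes in KO cells was 0.39. The size and sign of all these changes depend on the centring on kept probes. With arrays centred on probes bright in both channels, the all-gene median difference with decitabine went from 0.10 to -0.37 in WT cells. In KO cells it went from 0.09 to -0.69, and the changes at single probes shift by the same amounts. With no replicate array none of these differences has a test.

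The Prl median level was 0.41 on the WT untreated array, 0.11 on KO untreated, 0.18 on WT decitabine and -0.23 on KO decitabine. The Psg median was 0.09, -0.01, -0.13 and -0.14, the Ceacam median 0.15, 0.14, 0.01 and -0.19, and the median of all genes -0.04, -0.04, 0.04 and 0.02. The standard deviation across the 18 Prl genes was 0.32, 0.36, 0.25 and 0.46 on these arrays, so the families overlapped on each of them. These medians are no ranking of methylation between families, since different probes are involved and most MeDIP values lay at the floor, where the level follows the input: on the WT untreated array the centred input median was -0.47 in the Prl and -0.02 in the Psg genes. Averaged over the 4 arrays the Prl median lay 0.16 above the Psg median. After the median of probes with the same GC content was taken from each probe, an alternative added after the data were seen, the gap was 0.03.

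**Figure D2:**
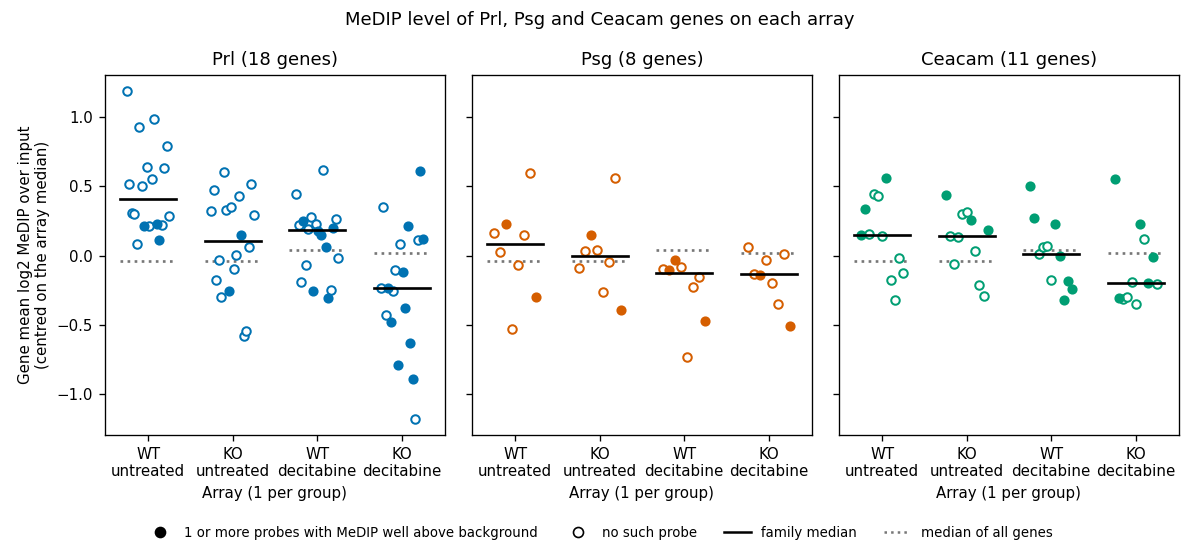
Level of each of the 37 genes (mean log2 MeDIP over input, centred on the array median) on each array, by family. Filled points had at least 1 probe with MeDIP well above background on that array, black lines are family medians and dotted lines the median of all genes. The Prl median runs from 0.41 on the WT untreated to -0.23 on the KO decitabine array, while all genes stay between -0.04 and 0.04.

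Placental lactogen II is encoded by Prl3b1, which read 0.51 on the WT untreated, 0.48 on the KO untreated, 0.22 on the WT decitabine and 0.35 on the KO decitabine array. All 4 values were above the median of all genes, and both decitabine values were below both untreated ones. Prl8a2, the decidual prolactin-related protein, read 0.08, -0.30, -0.07 and -0.48 in the same order, lower on both KO arrays. Prl3c1 read 1.19, 0.32, 0.44 and -0.23, highest on the WT untreated array. Prl2b1 read 0.93, 0.60, 0.19 and -0.25, with both decitabine values below both untreated values. For these 4 genes MeDIP was well above background at no probe on any array, except at 1 Prl8a2 probe on the KO decitabine array.

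In the neighbouring Prl7 and Prl8 genes the KO arrays were mostly the lower ones. Prl7b1, expressed in trophoblast, read 0.55, 0.00, 0.15 and -0.37 (WT and KO untreated, then WT and KO decitabine). Prl7d1, known as proliferin-related protein and as an inhibitor of vessel growth, read 0.11, -0.58, -0.31 and -0.89. Prl7c1, a close relative in sequence, read 0.22, -0.54, -0.25 and -1.18, lowest on the KO decitabine array. In both of these genes each KO value was below each WT value. Prl8a8 read 0.21, -0.26, -0.25 and -0.79, and here the WT decitabine value was as low as the KO untreated value. Prl7a2 read 0.23, 0.15, 0.06 and -0.63, with the KO decitabine array apart from the other 3. The other 9 Prl genes had levels between 0.21 and 0.99 on the WT untreated array.

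On the decitabine arrays the genes at the far end of the cluster were not all lower in KO. The last 3 members on chromosome 13 are Prl2a1, Prl4a1 and Prl5a1, prolactin-like genes of the trophoblast, of which Prl4a1 is known to act on natural killer cells. Prl4a1 read 0.79, 0.51, 0.26 and 0.61 (same order of arrays), Prl5a1 0.29, 0.29, -0.02 and 0.12, and Prl2a1 0.63, 0.06, 0.20 and 0.11. Without decitabine the KO value was below the WT value in Prl2a1 (-0.57) and Prl4a1 (-0.28) and 0.01 above it in Prl5a1. With decitabine it was above the WT value by 0.34 in Prl4a1 and 0.14 in Prl5a1 and below it in Prl2a1 (-0.09). Apart from these, Prl3b1 was the one Prl gene with a higher KO value on the decitabine arrays (0.13), and the other 14 were lower (-0.14 to -0.93). These genes were singled out after their values were seen, and position along the cluster was not tested.

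Of the Psg genes, Psg17 read -0.30, -0.39, -0.47 and -0.50 (same order), lower on both decitabine arrays. Psg19 read 0.60, 0.56, -0.15 and 0.01, with both decitabine values far below both untreated values and the WT and KO values close to each other. Psg25 read 0.23, 0.15, -0.03 and -0.14, lower on both decitabine arrays, although its only probe with MeDIP well above background moved up there. The other 5 Psg genes lay between -0.53 and 0.16 on the WT untreated array.

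Among the Ceacam genes, Ceacam9, a trophoblast member of the family, read 0.15, 0.44, 0.50 and 0.56, lowest on the WT untreated array. Ceacam19 read 0.56, 0.26, 0.23 and 0.23, highest on that array. Next to the Psg genes, Ceacam11, Ceacam12, Ceacam13 and Ceacam14 form a run of genes expressed in trophoblast, with 40.5% to 42.7% GC in their windows against 48.1% to 61.8% in the other Ceacam genes. All 4 were lower with decitabine in both genotypes and lower in KO with and without it, Ceacam13 reading 0.44, 0.13, 0.06 and -0.30 and Ceacam12 0.43, 0.30, 0.07 and -0.19. Ceacam14, the first of the run after Psg29, read 0.34, 0.14, 0.27 and -0.30, with the KO decitabine array lowest. Ceacam2, a cell adhesion molecule closely related to Ceacam1, read -0.02, -0.29, -0.18 and -0.01, and Ceacam10, a secreted relative, read -0.32, -0.21, -0.32 and -0.19. In these 2 genes, which lie apart from the Psg block, the spread over the 4 arrays was at most 0.29 and the treatments overlapped.

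With decitabine the members' median level was lower than untreated in both genotypes and lay below the median change of all genes. In WT cells the median difference was -0.30 over the 37 members and 0.10 over all genes, and in KO cells it was -0.25 against 0.09. In WT cells 34 of 37 members were lower, among them 18 of 18 Prl, 7 of 8 Psg and 9 of 11 Ceacam genes, where 37.3% of all genes were lower. In KO cells 29 of 37 were lower (16 Prl, 6 Psg and 7 Ceacam genes), where 37.9% of all genes were. For 20 of the 37 members in WT and 19 in KO cells, no probe had MeDIP well above background on either array. That held for 3080 and 2754 of the 18332 genes. Such differences lie near a floor that differed between arrays, and the part of the floor in them was not tested. By family the median difference was -0.41 in the Prl, -0.26 in the Psg and -0.15 in the Ceacam genes in WT cells, and -0.26, -0.14 and -0.25 in KO cells. Relative to all genes the Ceacam difference in WT cells was -0.24, and it turned to 0.05 after loess. The members that were higher in WT cells were Psg27, Ceacam9 and Ceacam20. On chromosome 7 the 8 Ceacam genes in the block of the Psg genes had median differences of -0.23 in WT and -0.34 in KO cells. Ceacam10 and Ceacam2 had -0.01 and -0.16 in WT and 0.02 and 0.29 in KO cells. A 2-fold call asked for a gene mean past 2-fold and 80% or more of the probes on that side. None of the members met it, while 0.649% of all genes met it upward and 0.0927% downward in WT cells, and 0.666% and 0.0491% in KO cells.

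**Figure D3:**
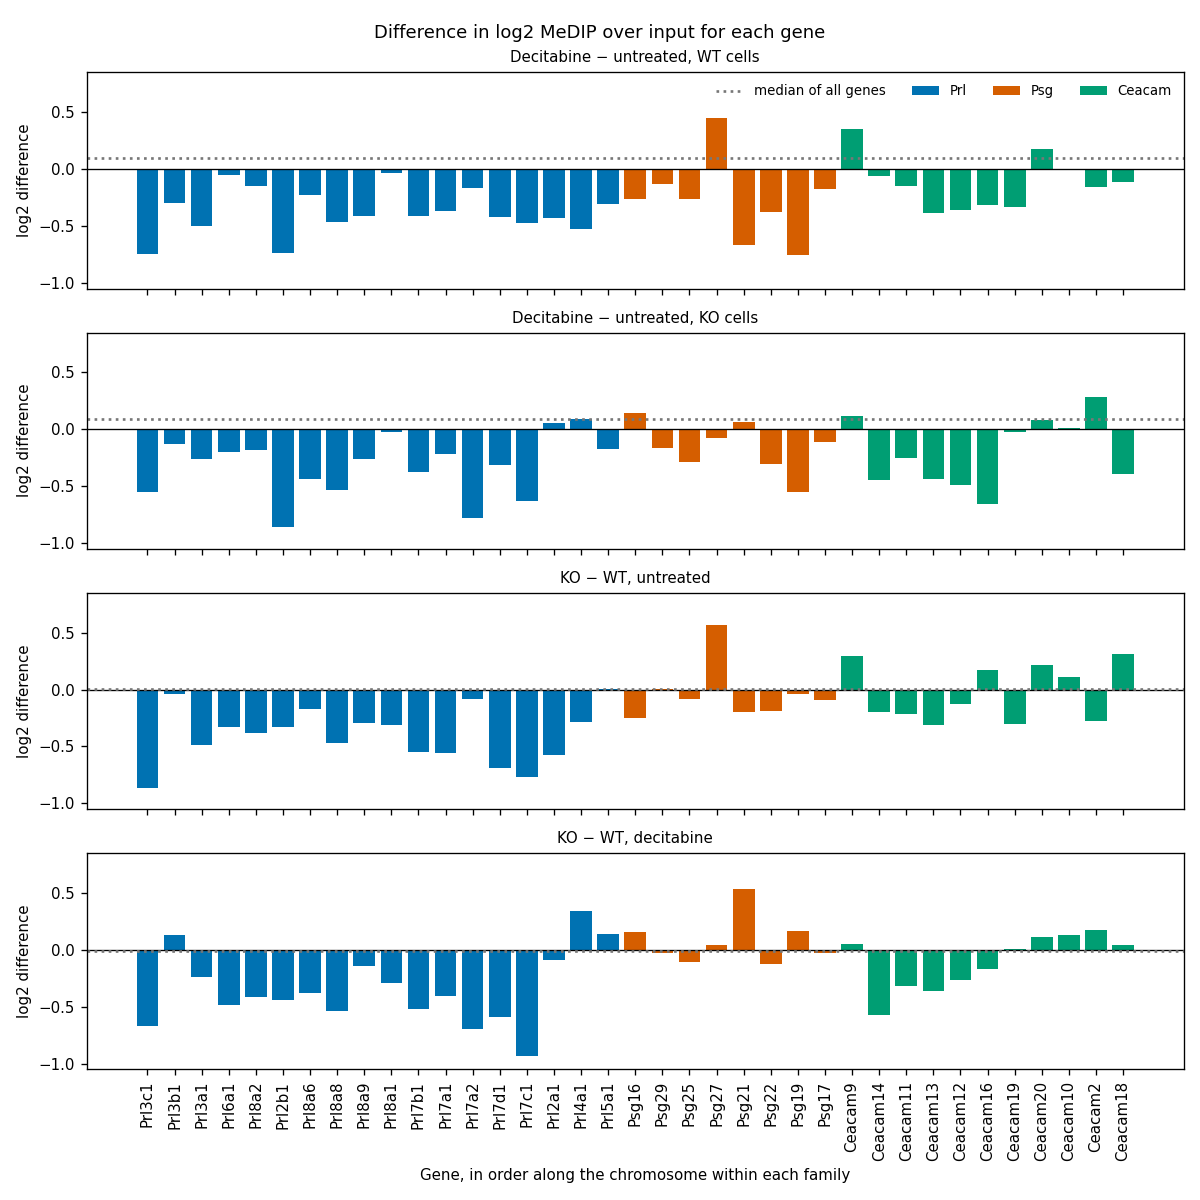
Difference in log2 MeDIP over input for each gene, in chromosome order within its family, for the 4 comparisons of 2 arrays, with the median of all genes dotted. In WT cells all 18 Prl bars with decitabine point down, and for KO against WT with decitabine the Prl bars have a median of -0.41 while the Psg and Ceacam medians are 0.01 and 0.00.

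An additive limma model of genotype and treatment over the 4 arrays gave a test, but the 1 degree of freedom left for error is the genotype by treatment interaction. Its error measures how far these arrays depart from additivity, not the spread between replicate cultures. For decitabine 8 of the 37 members were called lower and none higher at an adjusted p under 0.05, while 17 members (45.9%) and 33.1% of all genes had an unadjusted p under 0.05. Over all 18332 genes 3.50% were called lower and 11.0% higher. That split depended on the centring: 1.73% were lower and 29.8% higher when arrays were centred on all probes, and 59.2% lower and 0.382% higher when centred on probes bright in both channels. The latter moved the all-gene median for decitabine from 0.10 to -0.53 and called 35 of the 37 members lower, with a members' median of -0.88. The 8 were Prl2b1, Prl3c1, Prl7c1, Prl8a8, Psg19, Ceacam12, Ceacam13 and Ceacam16. Prl8a8, the one with a probe well above background, was lower by 0.50 on the log2 scale (SE 0.12, limma adjusted p = 0.0261), in 2 of 2 genotypes. Of its 7 probes 1 or 2 were well above background on each array and 3 to 5 held surrogate MeDIP values, so this size includes probes near the floor. Its centred MeDIP went from 1.22 to 0.82 in WT and from 1.29 to 0.95 in KO cells. The centred input of this gene rose from 0.71 to 0.95 and from 1.27 to 1.61. The limma adjusted p was 0.0055 for Prl2b1 and 0.0124 for both Psg19 and Prl3c1, whose levels are given above and were lower in 2 of 2 genotypes. Ceacam16, a protein of the inner ear's tectorial membrane, read 0.14, 0.31, -0.17 and -0.35 (adjusted p = 0.0377). In the others of these 8 genes no probe had MeDIP well above background on any array, so their calls concern values near the floor and give no size. These members were called under some settings and not others: with the GC correction 2 remained, Psg19 and Ceacam16, and after loess normalization of each array none of the members, nor any gene, was called for decitabine.

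KO cells were lower than WT cells in most Prl genes. Without decitabine 29 of 37 members were lower in KO, 17 of 18 Prl genes, 6 of 8 Psg genes and 6 of 11 Ceacam genes, against 49.4% of all genes. The median difference was -0.36 in the Prl, -0.08 in the Psg and -0.13 in the Ceacam genes and 0.00 over all genes. With decitabine 24 of 37 were lower (15 Prl, 4 Psg and 5 Ceacam genes, against 52.0% of all genes), with medians of -0.41, 0.01, 0.00 and -0.01. The 8 Ceacam genes in the block of the Psg genes had medians of -0.16 untreated and -0.22 with decitabine. No member met the 2-fold call, which 0.196% of all genes met upward and 0.164% downward without decitabine, and 0.458% and 0.104% with it. Comparisons with a shared array are not independent of each other, and the WT untreated array enters one decitabine and one genotype comparison.

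For genotype the same limma model called 5 members lower, all in the Prl cluster, and none higher, with 2.10% of all genes called lower and 2.01% higher. Centring on all probes gave 1.12% lower and 2.96% higher, and centring on bright probes 0.878% and 0.480%, with 3 members called lower under each. At an unadjusted p under 0.05 there were 16 members (43.2%), against 22.6% of all genes. Prl8a8, with a probe well above background on every array, was lower in KO with and without decitabine. Its log2 MeDIP over input fell by 0.50 (SE 0.12, limma adjusted p = 0.0495). The centred MeDIP signal of this gene did not fall, at 1.22 in WT and 1.29 in KO untreated, and 0.82 and 0.95 with decitabine. Its centred input was higher in KO, at 0.71 and 1.27 untreated and 0.95 and 1.61 with decitabine. Of its 7 probes, 3 to 5 held surrogate MeDIP values on each array. The limma adjusted p was 0.0118 for Prl7c1, 0.0173 for Prl3c1, 0.0255 for Prl7d1 and 0.0388 for Prl7b1, each lower in KO with and without decitabine. Prl7c1 and Prl3c1 had no probe with MeDIP well above background on any array, Prl7b1 none on the untreated arrays and Prl7d1 none on the KO untreated array, so no size is given for them. With the GC correction and after loess none of the members was called for genotype, and of all genes 3 and 5 were. Without the probes that match a second site Prl3c1, Prl7b1 and Prl7d1 were called.

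GC content moved with every one of these differences. All 18 Prl genes, with Ceacam11, lay in the decile of genes with the lowest GC content (28.7% to 40.9%). The 1833 genes of that decile had median differences of -0.28 with decitabine in WT cells, -0.28 in KO cells, -0.29 for KO against WT untreated and -0.31 with decitabine. In the decile with the highest GC content the same medians were 0.29, 0.32, 0.29 and 0.31. In the lowest decile 23.2% of genes were called lower for decitabine and 12.5% for genotype, against 4 and 5 of the 18 Prl genes (22.2% and 27.8%). Relative to the median of their own decile the Prl genes had median differences of -0.13, 0.02, -0.06 and -0.10 in the 4 comparisons, with 13, 8, 12 and 11 of the 18 below it. The Psg genes, in the deciles from 44.4% to 49.5% GC, had -0.30, -0.21, -0.05 and 0.09 relative to theirs, with 7, 6, 5 and 3 of 8 below, and the Ceacam genes -0.23, -0.16, 0.03 and -0.01. When each probe's value was taken less the median of probes at the same GC content, the Prl medians less those of all genes went from -0.51, -0.35, -0.36 and -0.40 to -0.18, -0.0016, -0.11 and -0.052.

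**Figure D4:**
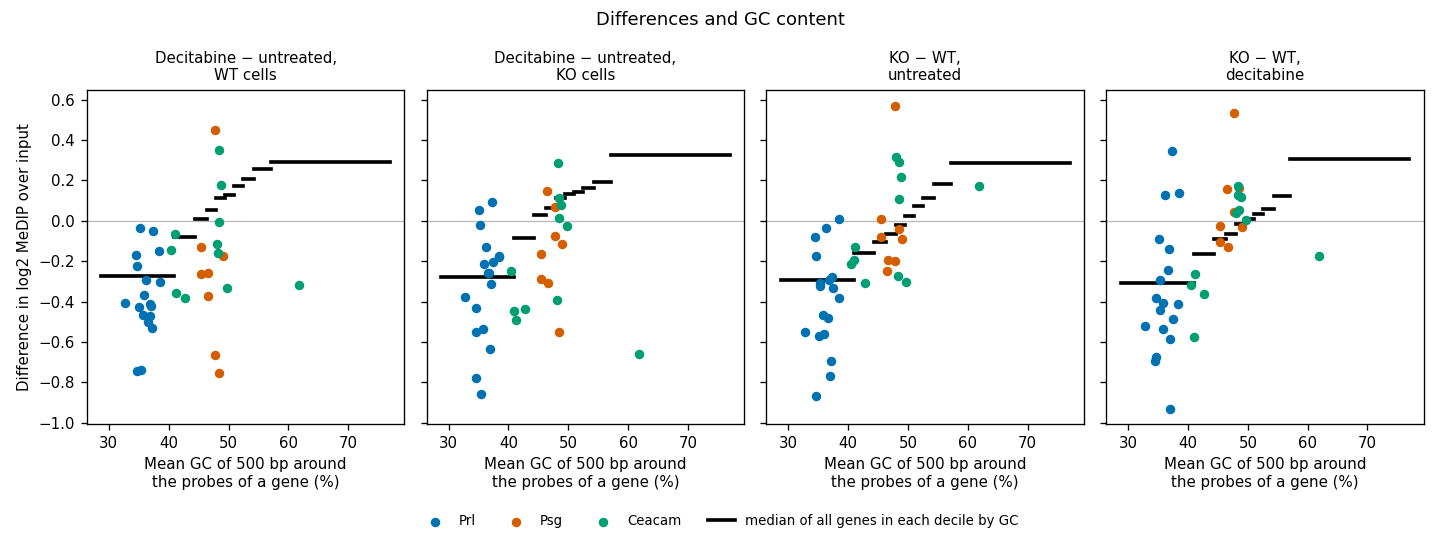
Difference in log2 MeDIP over input of each member against the mean GC content (%) of the 500 bp around its probes, for the 4 comparisons, with black bars for the median of all genes in each decile by GC content. The bars rise from left to right in each panel, from -0.28 to 0.29 with decitabine in WT cells, and the Prl points lie over the leftmost bar.

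The channels were also read apart. With decitabine the Prl genes' MeDIP signal, centred on each array's median, had a median difference of -0.42 in WT and -0.31 in KO cells, and their input signal 0.13 and 0.11. Genes of the lowest decile by GC content had similar medians, -0.37 and -0.33 in MeDIP and 0.07 and 0.10 in input. Between genotypes the Prl input was higher in KO by a median of 0.31 untreated, in 17 of 18 genes, and by 0.29 with decitabine, in 18 of 18 genes, whereas their MeDIP signal differed by -0.08 in each. In the lowest decile by GC content the input of all genes was likewise higher in KO, by 0.24 and 0.28, and the MeDIP signal differed by -0.06 and -0.02. The Psg input was higher in KO by 0.12 untreated and differed by -0.02 with decitabine. Between 52.5% and 72.0% of the Prl probes held surrogate values in MeDIP on these arrays, so a change in MeDIP below the floor would not be seen, and the part of the input in the lower Prl level was not tested.

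**Figure D5:**
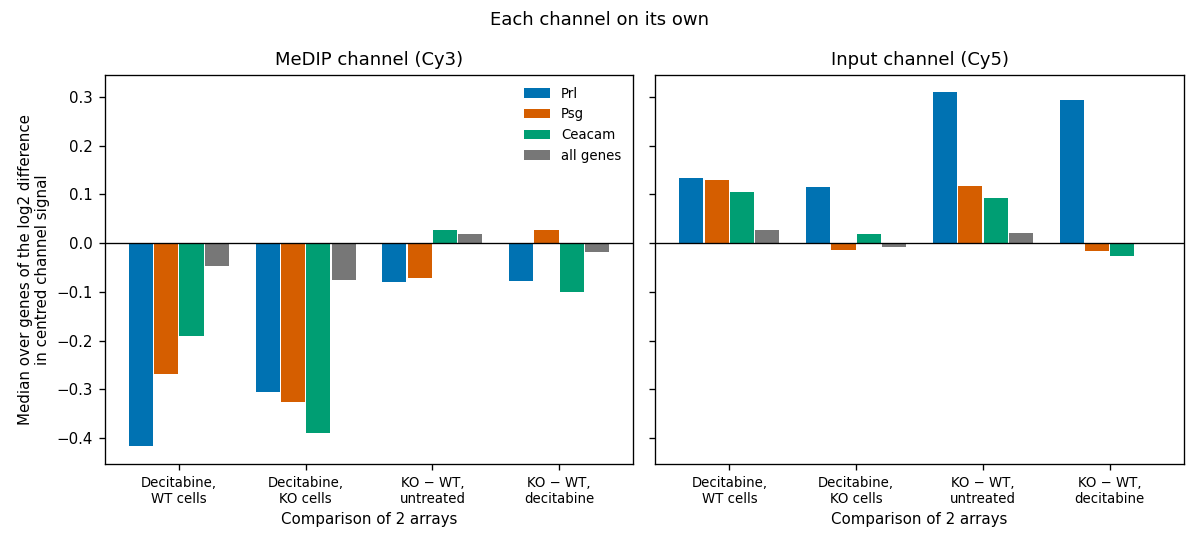
Median over genes of the log2 difference in the MeDIP (left) and input (right) channel, each centred on its array median, for the 4 comparisons. The Prl input bars for KO against WT stand at 0.31 and 0.29, and the Prl MeDIP bars for the same comparisons at -0.08.

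Other clustered gene families gave a scale for the clusters. Klr genes, natural killer cell receptors with a median GC content of 37.6%, had median differences of -0.19 and -0.24 with decitabine in WT and KO cells and -0.12 and -0.28 for KO against WT untreated and with decitabine (15 genes). The 69 Cyp genes, with 45.5% GC, had 0.03, -0.02, -0.05 and -0.09, and the 67 Krt genes, with 46.8%, had -0.02, -0.05, -0.03 and -0.09. The low-GC Klr family had the medians nearest to those of the Prl family among these 3, and no test was made between families.

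Sequence shared between paralogs limits what a probe can be assigned to. Of the 405 probes, 123 also matched another place in mm9 over at least 80% of their bases, 41 of 200 in the Prl, 40 of 73 in the Psg and 42 of 132 in the Ceacam family, and 2 matched exactly. In the Psg family 39 of the 40 such probes matched within the same clusters. Of the 41 Prl probes, 30 matched the Prl2c genes (the proliferins) elsewhere on chromosome 13, and these were 15 of the 18 Prl7d1 probes and all 15 Prl7c1 probes. Signal from the Prl2c genes therefore cannot be told apart from that of Prl7c1 and most of Prl7d1. Without such probes Prl7c1 had no value, Prl7d1 was still called lower for genotype (limma adjusted p = 0.0486), and Ceacam10 was called higher for decitabine (adjusted p = 0.0284), a call it did not have with all its probes.

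Of 45 other genes of prolactin signalling and of the placenta, 36 could be tested. With decitabine 6 were called higher and 3 lower in the limma fit, where 11.0% of all genes were called higher and 3.50% lower. For genotype 1 was called higher and none lower, against 2.01% and 2.10% of all genes. The 4 hormone and receptor genes, Prl, Gh, Prlr and Ghr, were not called. Prl itself, the pituitary hormone at the edge of the placental family, read 0.62, 0.26, 0.48 and 0.20. Of 7 signalling genes below the receptor, Socs3, a feedback inhibitor of cytokine receptors, read -0.63, -0.65, -0.31 and 0.00 and was called higher with decitabine (adjusted p = 0.037), with MeDIP well above background on the decitabine arrays only. Of 10 trophoblast regulators Esrrb and Tead4, transcription factors of early trophoblast, were called higher with decitabine. Tead4 was also called for genotype, higher in KO than in WT (limma adjusted p = 0.04996). Its MeDIP was well above background on the KO decitabine array only, at 2 of 6 probes. Among 10 other placental products Tpbpb, Ctsq and Cts8, from clusters of the trophoblast-specific protein and cathepsin genes, were called lower with decitabine, and the imprinted Peg10 higher. No probe of Ctsq or Cts8 had MeDIP well above background on any array, and those of Tpbpb and Peg10 had it on the decitabine arrays only. Of 5 Psg binding partners Tgfb1 read higher by 0.72 (SE 0.12, limma adjusted p = 0.00784) and Cd9 by 0.48. Both had MeDIP well above background at a probe on every array. These sizes depend on the centring, and centring on probes bright in both channels moved the all-gene median for decitabine from 0.10 to -0.53. The genes called lower had windows of 38.9% to 41.5% GC and those called higher of 47.2% to 66.0%, and the part of GC content in these list calls was not tested.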

How the data were processed

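The scanner output of 4 arrays, 1 per group, was analysed. Per the file headers, the authors' software (Agilent Feature Extraction 10.5.1.1, genome build mm9) had subtracted background, put surrogate values in place of signals near background and balanced the dyes; the deposited intensities are on a linear scale, with MeDIP DNA in Cy3 and input DNA in Cy5, per the labels. The log ratio deposited in the same files is on a log10 scale, Cy5 over Cy3. The authors' value table is on a log2 scale, and 357090 of 357133 of its rows (99.988%) hold the same 4 values, to 3 decimals and with the sign turned to MeDIP over input, as a scanner log ratio; it is not centred, its medians are 0, 0, 0 and -0.14, and its identifiers match no probe column.

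Here log2 MeDIP over input was taken per spot, averaged per probe, centred on the median of kept probes and averaged per gene. Kept probes (328399 of 520554, 63.1%) had input well above background on all arrays and no non-uniformity flag; genes needed at least 3. No loess or quantile step was used. MeDIP was well above background at 4.21%, 4.21%, 14.6% and 16.5% of kept probes (WT and KO untreated, then WT and KO decitabine), and the number of arrays limits the precision. No dye swap was made, so dye bias and enrichment cannot be told apart.

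Decitabine and genotype were tested with limma 3.58.1 (R 4.3.3; lmFit, eBayes, Benjamini-Hochberg over all genes, threshold 0.05) in an additive model with 1 residual degree of freedom. The method was tested on simulated data: for decitabine over 18332 genes, 100% of 100 genes moved by 1 and of 100 moved by 2 on the log2 scale were recovered with 9 false calls. The simulated errors were independent, with a common spread for all genes and no slide, GC or floor effect. The simulation therefore gives no rate of false calls for these arrays. Both moves were larger than any member's effect in the reported fit. Second sites were sought with BLAST 2.17.0 (at least 80% of bases). Alternatives were loess, normexp with offset 50, other centrings, no input filter, gene medians, the deposited log ratio, probes bright in MeDIP only, no multi-site probes and, added after the data were seen, a GC correction and centring on all probes. Genes described by name had MeDIP well above background at a probe on all arrays, were among the 3 largest rises or falls measurable on both arrays of a comparison, were among the 5 smallest adjusted p for a factor, or were on a short list of known members; Ceacam11, Ceacam12, Ceacam13, Ceacam16, Ceacam20, Psg27, Prl2a1, Prl4a1 and Prl5a1 were named after their values were seen. The members and lists were chosen with earlier results of these data known. Gene names come from the array's design and can be old.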

Additional observations from a re-analysis of the deposited data

Results flagged for a closer look

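The KO against WT difference, less the median of all genes, had opposite signs without and with decitabine in the Psg family (-0.089 and 0.022) and in the Ceacam family (-0.13 and 0.017). For Ceacam19 the difference itself, without taking off that median, was -0.30 untreated and 0.00396 with decitabine, so with decitabine there was almost none. These contrasts between treatments were not tested, since each rests on single arrays. Without probes that match a second site the Psg values were 0.047 and 0.046 and the Ceacam values 0.11 and -0.071, and after loess the Ceacam values were 0.024 and -0.045, so the Psg signs no longer differed in the first setting and the Ceacam order was turned in both.

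Outside the members, the single probe of Ceacam1 had MeDIP signals of 2859 on the WT decitabine and 1790 on the KO decitabine array, well above background there and not on the untreated arrays, where it gave 333 and 681. The single probe of Psg23 had 1381 and 1475 on the same decitabine arrays, with 496 and 490 untreated, and it also matches another Psg gene exactly. Both genes fall short of the 3 probes asked of a member.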

How the results depend on the processing

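The members' median difference less that of all genes was -0.40 with decitabine in WT cells and moved to -0.16 after loess, -0.29 with normexp, -0.71 over probes bright in MeDIP only (8 members) and -0.21 with the GC correction. In KO cells it was -0.34 and became -0.089, -0.15 and -0.082 with loess, normexp and GC correction. For KO against WT untreated it was -0.22, and -0.082 with loess and -0.046 with GC correction. With decitabine it was -0.13, and 0.015 with GC correction. The count of members called for decitabine was 8, against 0 with loess, 35 when centred on probes bright in both channels, 2 with normexp, 3 with gene medians, 5 with the deposited log ratio, 1 over probes bright in MeDIP (Psg25, higher, of 6 members fitted), 2 with GC correction and 5 when centred on all probes. Over all genes the share called was 14.5% in the reported fit and, in the order of those settings, 0%, 59.6%, 3.51%, 5.73%, 17.9%, 50.5%, 3.41% and 31.5%. For genotype it was 5, against 0 with loess, 3 with bright-probe centring, 2 with normexp, 10 without the input filter, 1 with gene medians, 3 without multi-site probes, 0 over probes bright in MeDIP, 0 with GC correction and 3 when centred on all probes. Over all genes it was 4.11%, against 0.0273%, 1.36%, 3.32%, 14.8%, 2.46%, 3.94%, 0.521%, 0.0164% and 4.09% in that order. The Prl level above Psg was 0.16, against -0.011 with loess, 0.78 without the input filter, -0.24 over probes bright in MeDIP and 0.025 with GC correction. Decitabine effects turned for Ceacam10 and Ceacam2 (-0.62 and -0.56, bright-probe centring) and for Psg25 (0.80, probes bright in MeDIP). Apart from this shift by centring, the cause of the changes between settings was not tested. No paired analysis was possible because each group had 1 array and the labels carry no replicate numbers, and leaving out an array leaves no residual degree of freedom. MeDIP at 376 of 405 member probes was not well above background on any array, which limits every size given.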
